A study of Mus musculus with 24 samples.

Results

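The 100 transcripts described here had the largest ratio of their 4 h level to their 0 h level in wild-type (WT) basophils during a chase that followed removal of antigen and 4-thiouridine. They were taken from 7794 ranked genes of the 15737 in the table. A gene was ranked if its mean was at least 100 reads over the 24 libraries, and 461 symbols (Arg1, Actb, Ccnd3 and the Ccl, numbered Zfp, ribosomal protein, Nduf, Psm, Cnot, numbered Gm and Rik genes) were dropped by rule. The 100 transcripts were chosen by a ranking value, the log2 ratio of mean CPM (reads scaled to a common library total) at 4 h to mean CPM at 0 h in WT, with 1 CPM added to each. The 100 values ran from 2.16 to 4.76 with a median of 2.37, against a median of 0.35 over all ranked genes. As this contrast chose the transcripts, its values are a description and support nothing. The last transcripts taken, Trappc13, Spout1 and Zdhhc6, had 2.16, 2.16 and 2.16, and the first left out, Pfkl, Ceacam1 and Lbhd1, had 2.15, 2.14 and 2.14.

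The cells were basophils grown from bone marrow of TTP-KO and WT mice for 7 days with IL-3 at 0.3 ng/mL. From day 6, cultures of both genotypes held IgE against TNP (1 µg/mL) together with 150 µM 4-thiouridine (s4U), which cells build into the RNA they make. After enrichment of CD49b+ cells, both received TNP-coupled ovalbumin at 10 ng/mL with s4U for 1.5 h, were washed, and were collected 0, 1, 2 or 4 h later, so that every group, 0 h included, had been stimulated. Each of the 8 groups, KO and WT at 4 times, held 3 libraries of 3′ mRNA tags, and the share of labelled RNA was not used here. The labels describe neither the TTP allele, its deleted part nor whether it was removed in all cells. They also leave out from how many mice or cultures the 3 libraries of each group were made, so p-values rest on the spread between libraries alone, and that spread may be technical.

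Tristetraprolin (TTP, encoded by Zfp36) binds AU-rich sequences in the 3′ untranslated region (UTR) of messenger RNAs and recruits the enzymes that shorten the poly(A) tail, so that the messenger decays. Basophils carry the high-affinity IgE receptor, and antigen that crosslinks it starts a short wave of immediate early and cytokine messengers. In activated lymphocytes, later messengers include those of factors that assemble ribosomes and of metabolic enzymes such as hexokinase.

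Libraries held 8839260 to 25372890 reads, and the smallest were KO 4 h libraries B and C. Levels are given as CPM scaled by edgeR's TMM factors, which correct for differences in composition between libraries. The targeted gene Zfp36 had 158 to 210 CPM in KO and 219 to 269 CPM in WT at 0 h, 36.0 to 58.5 CPM in KO and 104 to 147 CPM in WT at 1 h, 27.1 to 51.1 CPM in KO and 73.3 to 78.9 CPM in WT at 2 h, and 22.4 to 62.1 CPM in KO and 58.4 to 78.2 CPM in WT at 4 h. Because the deleted part is not given and 3′ tags report the end of the messenger, these reads do not check the labels. The basophil marker Mcpt8 had 11810 to 15110 CPM over the 24 libraries, while the summed level of 18 basophil markers was 40080 to 43980 CPM at 4 h and 53810 to 55340 CPM at 0 h in KO, and 38070 to 40940 CPM at 4 h and 55160 to 56380 CPM at 0 h in WT. The 18 include the cytokine Il4, with 355 to 6718 CPM over the 24 libraries, and Hdc, with 6158 to 14040 CPM, so the sum does not measure basophil number alone. Of 7 mast cell markers, Tpsb2 had 70.3 to 221 CPM, Slc6a4 63.3 to 184 CPM and Cma1 20.3 to 80.2 CPM over the 24 libraries, and Mcpt4 had 0 to 2.37 CPM. What part these markers have in the results was not tested. Of 20 monocyte and macrophage markers, 19 were in the table, and their summed level was 2905 to 2948 CPM in KO and 1225 to 1285 CPM in WT at 0 h, and 1620 to 2032 CPM in KO and 718 to 805 CPM in WT at 4 h. The sum of 13 neutrophil markers was higher, at 3965 to 4303 CPM in KO and 4687 to 5091 CPM in WT at 0 h. At 4 h it was 3483 to 3731 CPM in KO and 2648 to 2905 CPM in WT. In bulk samples, fewer cells of a type and less RNA per cell cannot be told apart.

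The letters that TTP is known to bind, TATTTAT, stood in the longest annotated 3′ UTR of 29 of the 100 transcripts, which is 29.0%, against 31.6% of 7772 ranked genes. The longer form TTATTTATT stood in 11% of the 100 and in 8.2% of the ranked genes, and the median UTR length was 1310 bases among the 100 and 1433 bases among the ranked genes. Both shares lay near those of all ranked genes. For 5 transcripts whose levels are described below, the 1 site that also holds the longer form is shown as DNA, 5′ to 3′, from the GENCODE M21 transcripts (GRCm38), with the 7 letters in capitals and 10 bases on each side.
Hk2: ttatacgagtTATTTATtccagactgt
Lrp12: aattcttgttTATTTATtccttagctg
Pik3cd: tatgccatgtTATTTATtgaaaagagt
Mgat5: ccaattaattTATTTATttgggaggat
Rpf2: tctataacatTATTTATtacgtaaact
Lrp12 had 3 sites of 7 letters in all, Hk2, Pik3cd and Mgat5 had 2 each and Rpf2 had 1, and the sites not shown do not hold the longer form. A match says only that the letters are there, and nothing about TTP at that messenger.

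Summed over the 100 transcripts, the level in KO libraries was 1809 ± 26.2, 2579 ± 40.2, 4111 ± 25.8 and 6150 ± 237 CPM at 0, 1, 2 and 4 h (SD, n = 3). In WT libraries it was 1520 ± 25.8, 2701 ± 57.8, 4594 ± 178 and 6771 ± 227 CPM. No KO library of a later time overlapped with one of an earlier time. The largest single part was Fgl2, which made up 25.4% of the sum in KO and 29.2% in WT at 4 h. Without Fgl2 the sum was 4587 ± 75.7 CPM at 4 h and 1329 ± 23.5 CPM at 0 h in KO, and 4791 ± 253 CPM at 4 h and 980.2 ± 17.1 CPM at 0 h in WT. The WT values at 0 and 4 h ranked the transcripts, and KO values did not enter the ranking. KO reads did count in the minimum of 100 mean reads over the 24 libraries. Of the 100 transcripts, 41 had a mean under 200 reads, so the choice was not fully free of the KO libraries. Among these, high KO reads at 4 h could help a transcript to pass the minimum. The highest group mean was that of 4 h for 86 of the 100 in KO. In WT it was for 90, a count that the ranking itself favoured. The share over all ranked genes was not computed, so these counts are a description only.

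**Figure D1:**
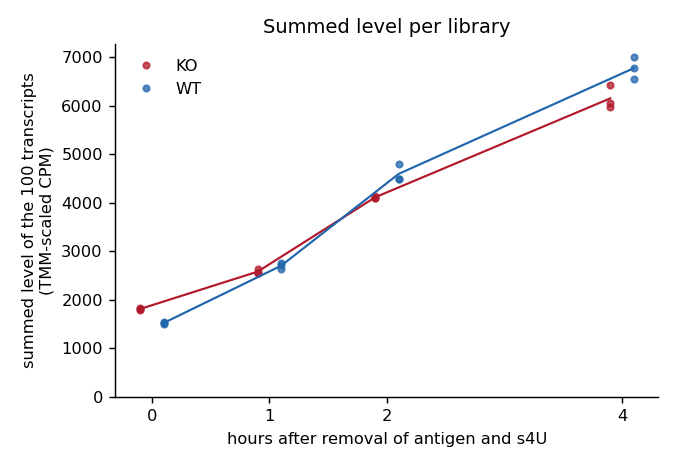
Summed level of the 100 transcripts (TMM-scaled CPM, y axis) against hours after removal of antigen and s4U (x axis), with 1 point for each library and lines through the means of KO (red) and WT (blue). The 3 KO libraries lie between 5970.0 and 6418 CPM at 4 h, against 1789 and 1839 CPM at 0 h.

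Transcripts chosen in WT were mostly higher at 4 h than at 0 h in KO cells as well. By edgeR's quasi-likelihood test with Benjamini-Hochberg adjustment over all 12936 genes tested, 54 of the 100 rose in KO between 0 and 4 h and 0 fell, against 7.45% of all genes that rose and 10.6% that fell. Among ranked genes, 9.93% rose. The log2 change was above 0 for 99 of the 100, with a median of 1.70 (all genes: 0.08). An unadjusted p under 0.05 was found for 71 (all genes: 30.7%), and all 71 were higher at 4 h. All 3 KO libraries at 4 h lay above all 3 at 0 h for 76 of the 100, against 19.2% of ranked genes. By the ranking value computed on KO libraries, 30 of the 100 stood among the top 100 genes and 70 among the top 500.

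Scaling mattered for all changes between 4 and 0 h. Library-size scaling alone, with no TMM factor, moved the median of all genes to 0.45 and that of the 100 to 2.07, raised the count of rising transcripts to 68, and put 2156 of all genes higher and 818 lower, against 964 higher and 1372 lower with TMM. With library-size scaling the log2 change was above 0 for 100 of the 100, since Prmt3 had 0.04 there and -0.33 with TMM. Without the small KO libraries B and C at 4 h, 43 rose, all of them among the 54.

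Read depth went with the calls. All 23 transcripts with a mean of at least 500 reads rose in KO, as did 21 of 36 with 200 to 500 reads and 10 of 41 with 100 to 200 reads. Whether the transcripts with fewer reads and no call changed was not detectable at this depth.

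**Figure D2:**
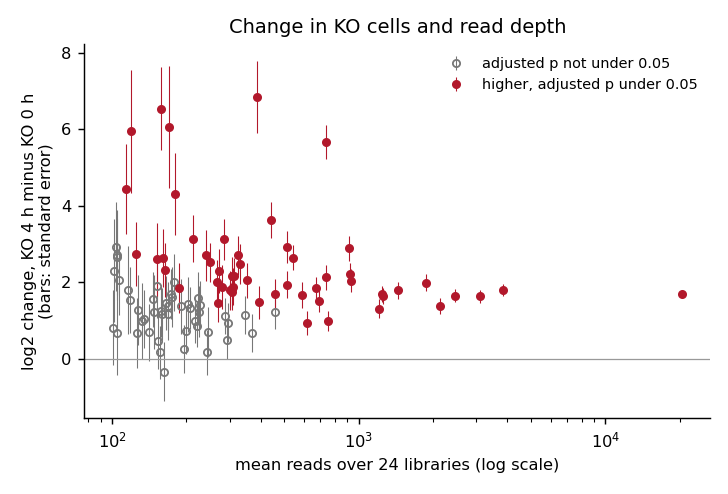
Log2 change of KO 4 h minus KO 0 h (y axis, bars are standard errors) against the mean reads over 24 libraries (x axis, log scale), with filled points for the 54 transcripts that rose. Every transcript above 500 mean reads is filled, and the unfilled ones lie below that.

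Receptors, ligands and other secreted or surface proteins formed the group with the most calls, 12 of 15 in KO at 4 h, with a median log2 change of 2.48. As calls went with read depth and depth was not matched between role groups, counts of calls do not rank the groups. Tnfrsf9 encodes 4-1BB, a costimulatory receptor of the TNF receptor family. In KO it had 2.50, 1.29 and 5.39 CPM at 0 h, 6.68, 2.95 and 14.5 CPM at 1 h, 40.4, 40.1 and 40.2 CPM at 2 h, and 134, 169 and 160.3 CPM at 4 h. WT libraries had 4.78, 6.16 and 6.88 CPM at 0 h, 12, 4.61 and 7.63 CPM at 1 h, 37.7, 57.3 and 45.0 CPM at 2 h, and 101, 114 and 78.0 CPM at 4 h. The libraries of 2 and 4 h lay apart from each other and from both earlier times in each genotype. Its log2 change in KO was 5.67 ± 0.43 between 0 and 4 h (SE, adjusted p = 7e-15, edgeR). It also had the highest of all ranking values computed on KO libraries. The 3 KO libraries at 4 h lay above the 3 WT libraries, which were among those that chose the transcripts, so this order was not tested.

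Ptprf, a receptor tyrosine phosphatase, had 71.3, 62.8 and 43.1 CPM at 4 h and 0, 0.647 and 0.931 CPM at 0 h in KO, and 38.4, 50.3 and 35.2 CPM at 4 h and 6.83, 0 and 0 CPM at 0 h in WT. Its KO change was 6.84 ± 0.95 (adjusted p = 1.4e-07, edgeR), and the change between 0 and 1 h was 4.40 ± 0.88, both over 0 h levels near 0. Mmp13, a collagenase, had 10.6, 7.24 and 3.79 CPM at 0 h, 25.1, 33.1 and 17.5 CPM at 1 h, 27.8, 35.8 and 36.2 CPM at 2 h, and 121, 64.3 and 83.5 CPM at 4 h in KO. The WT levels were 0.186, 2.51 and 1.08 CPM at 0 h, 18.1, 13.2 and 11.2 CPM at 1 h, 14.1, 29.1 and 19.1 CPM at 2 h, and 19.7, 23.3 and 32.7 CPM at 4 h. Its KO libraries lay above the WT libraries at 0 and 4 h, times whose WT libraries chose the transcripts, so that order carries no reading. At 1 and 2 h the KO and WT libraries overlapped. The tests at 1 and 2 h gave differences of 0.83 ± 0.42 and 0.68 ± 0.42, neither past the threshold by edgeR.

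Fgl2, a fibrinogen-like protein with secreted and membrane forms, had by far the highest level of the 100. In KO it had 490.3, 485 and 465 CPM at 0 h, 929.7, 773 and 827 CPM at 1 h, 1288, 1294 and 1303 CPM at 2 h, and 1745, 1414 and 1531 CPM at 4 h. In WT the level was 513, 552 and 555 CPM at 0 h, 970.5, 1018 and 980.1 CPM at 1 h, 1851, 1509 and 1682 CPM at 2 h, and 1973, 1947 and 2022 CPM at 4 h. The KO change of 1.70 ± 0.10 had the smallest p of the 100 (adjusted p = 9.31e-19, edgeR). The chemokine Xcl1 rose by 2.65 ± 0.34 in KO, Sdc4, a heparan sulfate proteoglycan, by 2.13 ± 0.32, Fgfr1, a fibroblast growth factor receptor, by 1.79 ± 0.22, Lrp12, of the LDL receptor family, by 1.65 ± 0.17, and Clec5a, a myeloid lectin receptor, by 1.64 ± 0.21.

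The transcript with the highest ranking value, Col18a1, the collagen that holds endostatin, had 12.3, 30.1 and 15.3 CPM at 4 h and 3.24, 0 and 6.25 CPM at 0 h in KO. In WT it had 33.7, 17.7 and 18.3 CPM at 4 h and 0 reads in the 3 libraries at 0 h. Its KO change of 2.60 ± 0.95 passed narrowly (adjusted p = 0.049, edgeR). That call was lost when only the groups compared were fitted and in 3 of 6 fits that each left out 1 library. Edn1, the precursor of endothelin-1, had 16.1, 13.3 and 23.5 CPM at 4 h and 3.03, 6.47 and 6.78 CPM at 0 h in KO, groups that did not overlap. Its KO change of 1.70 ± 0.65 did not pass (adjusted p = 0.064, edgeR). WT libraries had 14.0, 18.4 and 6.56 CPM at 4 h and 0 reads in the 3 libraries at 0 h. Alcam and Il9r, a cell adhesion molecule and the receptor for IL-9, had 1.14 ± 0.50 and 2.71 ± 1.18 and did not pass either.

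Among 6 transcription factors and corepressors, 4 rose in KO. Ets1, which gave the group's highest level, had 102, 99.2 and 105 CPM at 0 h, 136, 138 and 163 CPM at 1 h, 224, 199 and 191 CPM at 2 h, and 382, 344 and 346 CPM at 4 h in KO. The WT levels were 92.6, 95.5 and 129 CPM at 0 h, 148, 189 and 211 CPM at 1 h, 248, 286 and 197 CPM at 2 h, and 513, 429.8 and 449 CPM at 4 h. The KO libraries of each time lay above those of the time before. Bach2, a repressor known from lymphocytes, had 59.1, 69.4 and 44.4 CPM at 4 h and 7.49, 9.88 and 5.39 CPM at 0 h in KO, and 67.9, 53.3 and 48.7 CPM at 4 h and 4.53, 2.17 and 12.2 CPM at 0 h in WT. The KO changes were 1.81 ± 0.15 for Ets1 (adjusted p = 2.33e-13) and 2.92 ± 0.42 for Bach2 (adjusted p = 2.76e-07, edgeR). Etv5, another ETS factor, rose by 2.16 ± 0.48 and Tef, a clock-controlled bZIP factor, by 1.94 ± 0.35. Mitf and Runx1t1 had 1.22 ± 0.96 and 2.00 ± 0.75 and did not pass.

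Signalling proteins rose in 5 of 6 cases. Pik3cd and Pik3cg encode catalytic subunits of the class I phosphoinositide 3-kinases of leukocytes, and rose by 1.38 ± 0.20 and 1.51 ± 0.29 in KO between 0 and 4 h. Rgs14, a regulator of G protein signalling, rose by 2.22 ± 0.27, Rptor, the scaffold of the growth kinase complex mTORC1, by 2.17 ± 0.48, and Gna14, a G protein alpha subunit, by 1.89 ± 0.49. The survival kinase Pim2 had 0.71 ± 0.66 and did not pass.

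Pik3cd and Hk2 had lower levels at 1 h than at 0 h in KO before they rose. Hk2 encodes hexokinase 2, which phosphorylates glucose in the first step of glycolysis. In KO it had 114, 132 and 89.1 CPM at 0 h, 71.8, 49.1 and 89.0 CPM at 1 h, 149, 155 and 166 CPM at 2 h, and 347, 379 and 318 CPM at 4 h. In WT the level was 97.2, 87.6 and 83.8 CPM at 0 h, 69.4, 81.3 and 85.1 CPM at 1 h, 197, 150.4 and 183 CPM at 2 h, and 413, 452 and 437 CPM at 4 h. The KO libraries at 1 h lay just below those at 0 h. Pik3cd had 80.0, 77.7 and 108 CPM at 0 h, 37.5, 44.1 and 30.3 CPM at 1 h, 132, 95.1 and 88.6 CPM at 2 h, and 199, 238 and 255 CPM at 4 h in KO. In WT it had 53.2, 85.3 and 64.7 CPM at 0 h, 72.4, 43.3 and 72.3 CPM at 1 h, 141, 161 and 152 CPM at 2 h, and 243, 305 and 254 CPM at 4 h. Between 0 and 1 h in KO, the log2 change was -0.67 ± 0.17 for Hk2 (adjusted p = 0.012) and -1.24 ± 0.20 for Pik3cd (adjusted p = 3.05e-05, edgeR). Between 1 and 2 h it was 1.16 ± 0.17 and 1.49 ± 0.20 in KO, and 1.17 ± 0.17 and 1.27 ± 0.20 in WT, all 4 past the threshold.

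**Figure D3:**
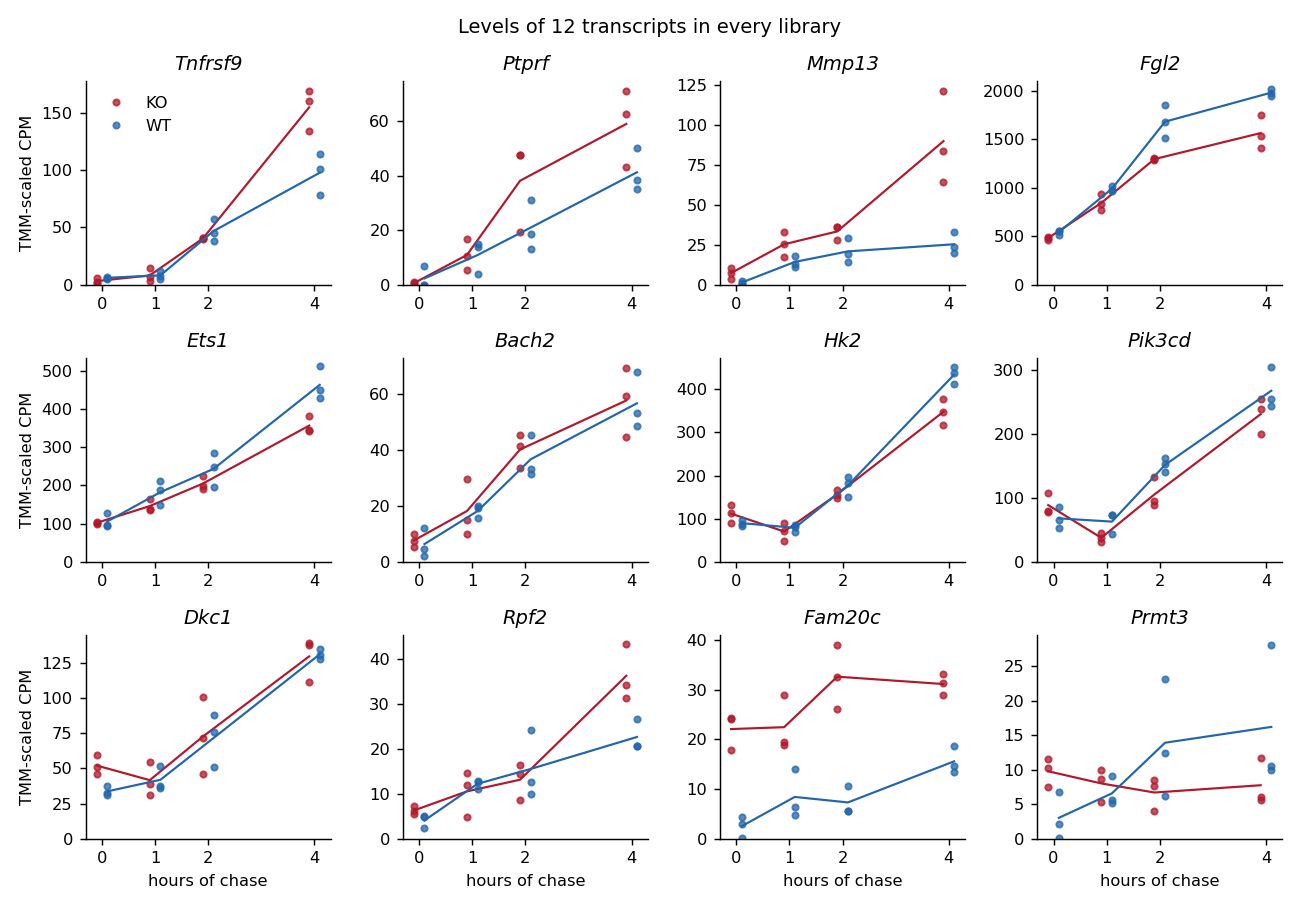
Levels of 12 transcripts (TMM-scaled CPM, y axes from 0) in every library against hours of chase (x axes), with lines through the means of KO (red, drawn left) and WT (blue, drawn right). Tnfrsf9 reaches 134 to 169 CPM in KO and 78.0 to 114 CPM in WT at 4 h, and Hk2 and Pik3cd are lowest at 1 h in KO. Fam20c is higher in KO than in WT libraries at 1 and 2 h, times that the ranking did not use.

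Factors of ribosome assembly and ribosomal RNA processing made up 16 of the 100, and 7 of them rose in KO between 0 and 4 h, with a median change of 1.40. Dkc1, the pseudouridine synthase of H/ACA ribonucleoproteins, had 139, 112 and 138 CPM at 4 h and 45.8, 59.3 and 51.0 CPM at 0 h in KO, and 135, 131 and 128 CPM at 4 h and 37.7, 32.6 and 30.8 CPM at 0 h in WT. Rpf2, which helps to place the 5S RNA in the large subunit, had 43.2, 31.4 and 34.2 CPM at 4 h and 7.22, 6.09 and 5.59 CPM at 0 h in KO, and 26.6, 20.7 and 20.6 CPM at 4 h and 5.06, 4.88 and 2.31 CPM at 0 h in WT. The groups of 4 and 0 h did not overlap for either transcript in either genotype. The KO changes were 1.32 ± 0.24 for Dkc1 (adjusted p = 2.66e-05) and 2.52 ± 0.50 for Rpf2 (adjusted p = 0.00013, edgeR). Pwp1, Exosc1, Nop16, Rrp1b and Rcl1 rose by 2.32, 2.29, 1.82, 1.79 and 1.00. Exosc1, a subunit of the RNA exosome, had 6.66, 55.1 and 38.2 CPM at 4 h and 10.4, 1.94 and 7.98 CPM at 0 h in KO, groups that overlapped, and its high values came from the small libraries B and C. Without those libraries Exosc1 and Rrp1b lost their calls, and Pwp1 lost its call without KO 0 h library A or B or KO 4 h library A. Of the 9 that did not pass, 8 had changes between 0.95 (Nop2, an rRNA methyltransferase) and 1.90 (Znhit6), while Nufip1 had 0.17 ± 0.69.

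The group's sum was 198 ± 11.4, 246 ± 25.2, 311 ± 16.5 and 532 ± 30.5 CPM at 0, 1, 2 and 4 h in KO, and 118 ± 11.4, 218 ± 10.3, 304 ± 10.0 and 553 ± 42.0 CPM in WT (SD, n = 3). A wider list of 156 ribosome biogenesis factors, written after the 100 names were known, had 139 tested genes that were not among the 100. Of these, 27 rose and 1 fell in KO between 0 and 4 h, with a median change of 0.94, beside the 7.45% that rose and the median of 0.08 over all genes. As this list followed from the names, its counts are a description.

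Promoters of 85 of the 100 transcripts were in the RefSeq table (GRCm38.p6), each from 250 bases before to 50 after the start. Each motif was searched on both strands. The E-box CACGTG, a site of MYC-type factors that is known from growth genes, stood in 14.1% of them and in 12.8% of 6232 ranked genes, and the ETS core CCGGAAG in 22.4% and 23.4%. Both shares lay near those of ranked genes, and so did TGACGTCA (3.53% and 3.74%) and TGANTCA (7.06% and 6.29%). TTCNNNGAA stood in 10.6% and 7.89%, and GGGCGG in 62.4% and 72.4%. The promoters of Nop2 (chr6:125131633-125131932, plus strand) and Rpf2 (chr10:40246930-40247229, minus strand) are printed because both hold the E-box, which begins 60 and 26 bases before the start and is in capitals.
Nop2: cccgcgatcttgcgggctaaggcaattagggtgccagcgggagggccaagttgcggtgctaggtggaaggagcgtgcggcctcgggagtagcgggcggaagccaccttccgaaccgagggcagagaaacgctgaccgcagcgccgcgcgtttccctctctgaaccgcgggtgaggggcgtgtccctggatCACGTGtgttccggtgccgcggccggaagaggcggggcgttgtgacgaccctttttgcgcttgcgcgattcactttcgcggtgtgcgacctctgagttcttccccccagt
Rpf2: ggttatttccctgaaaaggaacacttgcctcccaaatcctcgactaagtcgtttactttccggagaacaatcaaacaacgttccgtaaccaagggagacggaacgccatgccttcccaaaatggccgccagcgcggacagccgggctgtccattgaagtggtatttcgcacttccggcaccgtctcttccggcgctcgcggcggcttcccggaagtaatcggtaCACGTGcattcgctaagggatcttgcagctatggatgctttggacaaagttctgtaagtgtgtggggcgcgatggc
The change in KO passed for Rpf2 and not for Nop2, whose levels in KO were 32.0, 25 and 24.8 CPM at 4 h and 25.6, 5.94 and 10.8 CPM at 0 h.

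Factors of transfer, messenger and small nuclear RNA synthesis, processing and translation numbered 17, of which 7 rose in KO. Lars2, the mitochondrial leucyl-tRNA synthetase, had 4.91, 4.12 and 4.72 CPM at 0 h, 4.24, 2.20 and 3.25 CPM at 1 h, 12, 16.9 and 7.15 CPM at 2 h, and 30.3, 48.4 and 42.6 CPM at 4 h in KO. WT libraries had 34.1, 35.7 and 19.8 CPM at 4 h and 4.55, 4.72 and 2.20 CPM at 0 h. Its KO change was 3.14 ± 0.61 (adjusted p = 8.06e-05, edgeR). The others that rose were Snupn, Dhx29, Ints2, Gtf3c6, Htatsf1 and Prpf31, by 1.74 to 2.73. They serve import of small nuclear ribonucleoproteins (Snupn), translation initiation (Dhx29), small nuclear RNA processing (Ints2), RNA polymerase III transcription (Gtf3c6) and splicing (Prpf31).

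The only change below 0 among the 100 was that of Prmt3, an arginine methyltransferase of this group. It had 6.00, 5.62 and 11.6 CPM at 4 h and 7.54, 11.6 and 10.2 CPM at 0 h in KO, and 28.1, 10.5 and 10.0 CPM at 4 h and 2.17, 0.135 and 6.77 CPM at 0 h in WT. The KO groups overlapped, and the change of -0.33 ± 0.77 did not pass (adjusted p = 0.84, edgeR). Rpap1, an RNA polymerase II-associated protein with the seventh ranking value, had 12.4, 22.6 and 13.6 CPM at 4 h and 6.11, 19.4 and 4.92 CPM at 0 h in KO, groups that overlap, and a change of 0.68 ± 0.90 (adjusted p = 0.68, edgeR). The other lowest changes were 0.17 for Nufip1 and Trappc11, 0.26 for Cdc16, 0.46 for Gtf2e1 and 0.50 for Fam20c, none past the threshold.

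Of 12 transcripts of metabolism, transport and mitochondria, 5 rose in KO, namely Hk2, Tomm40, Mgat5, Slc35c1 and Srm. Tomm40 is the pore of the mitochondrial import complex, Mgat5 branches N-glycans, Slc35c1 carries GDP-fucose into the Golgi and Srm makes spermidine. Their log2 changes in KO were 1.64 (Hk2), 1.70 (Tomm40), 1.70 (Mgat5), 1.67 (Slc35c1) and 0.94 (Srm). Mgat5 had 107, 98.1 and 103 CPM at 4 h and 29.3, 35.1 and 30.7 CPM at 0 h in KO, and 97.5, 95.4 and 111 CPM at 4 h and 25.6, 27.6 and 24.2 CPM at 0 h in WT, with no overlap in either. In the 6 transcripts of DNA replication, repair and the cell cycle, Ccnb1ip1, a ubiquitin ligase known from meiosis, rose by 6.54 ± 1.08, Rprm by 4.31 ± 1.07 and Orc2, a subunit of the origin recognition complex, by 3.12 ± 0.54. Ccnb1ip1 had 0, 0.118 and 0.532 CPM at 0 h, 3.56, 15.5 and 8.96 CPM at 1 h, 6.61, 14.1 and 15.1 CPM at 2 h, and 30.3, 8.33 and 21.1 CPM at 4 h in KO. Its 0 h libraries held 0, 2 and 8 reads, so the size of the change on the log2 scale rests on few reads there.

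Napb, a SNAP protein of vesicle fusion, and Fam83e had high changes over 0 h levels at or near 0, with 4 h libraries that lay far apart. Napb had 0, 0 and 2.79 CPM at 0 h, 0, 2.01 and 0 CPM at 1 h, 5.10, 0 and 3.29 CPM at 2 h, and 16.5, 90.9 and 76.6 CPM at 4 h in KO, against 26.4, 15.6 and 13.5 CPM at 4 h in WT. Fam83e had 12.7, 83.6 and 42.3 CPM at 4 h and 0, 0 and 2.26 CPM at 0 h in KO, and 21, 12.1 and 14.7 CPM at 4 h and 0, 3.18 and 0 CPM at 0 h in WT. In both, the highest KO values came from the small libraries B and C. In KO at 4 h, libraries A, B and C held 303, 939 and 969 reads of Napb and 233, 863 and 535 of Fam83e. These reads counted in the minimum of mean reads used for ranking. With these reads taken out of the mean over 24 libraries, both transcripts would have been under that minimum. The same held for Prss37 and Snupn, which also rose in KO between 0 and 4 h. In KO at 4 h, libraries A, B and C held 521, 110 and 330 reads of Prss37 and 482, 224 and 189 of Snupn. The rise of Napb, Fam83e, Prss37 and Snupn in KO at 4 h was thus partly set by the choice of transcripts. The changes of Napb and Fam83e were 6.06 ± 1.59 (adjusted p = 0.0040) and 5.95 ± 1.61 (adjusted p = 0.0054) by edgeR, and neither passed by DESeq2 (adjusted p = 0.069 and 0.071). Trappc14, of the TRAPP tethering complex, rose by 2.04 ± 0.31 and had a mean of 928 reads.

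Among the 17 transcripts with no role group, 9 rose in KO, namely Fam83e, Tmem51, Csta2, Spout1, Zdhhc6, Ccdc137, Eeig1, Lpp and Rnf121. Lpp, a LIM domain protein of cell adhesion sites, was high at 4 h only. It had 4.22, 21.2 and 19.8 CPM at 0 h, 20.5, 8.55 and 10.4 CPM at 1 h, 13.1, 17.2 and 10.3 CPM at 2 h, and 50.4, 33.9 and 41.9 CPM at 4 h in KO. WT libraries had 16.4, 17 and 6.83 CPM at 0 h, 14.1, 16.0 and 21.4 CPM at 1 h, 12.4, 15.0 and 8.74 CPM at 2 h, and 61.0, 70.3 and 60.0 CPM at 4 h. In both genotypes the 4 h libraries lay above all others, and the first 3 times overlapped. The KO change of 1.48 ± 0.43 passed (adjusted p = 0.010, edgeR), and the call was lost when only the groups compared were fitted or KO 0 h library A was left out. Eeig1 had 17, 18.7 and 13.9 CPM at 0 h, 12.1, 14.6 and 21.1 CPM at 1 h, 41.5, 44.8 and 41.4 CPM at 2 h, and 78.2, 50.7 and 49.2 CPM at 4 h in KO, a step that lay between 1 and 2 h. Its KO change to 4 h was 1.84 ± 0.31 (adjusted p = 6.43e-06, edgeR).

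**Figure D4:**
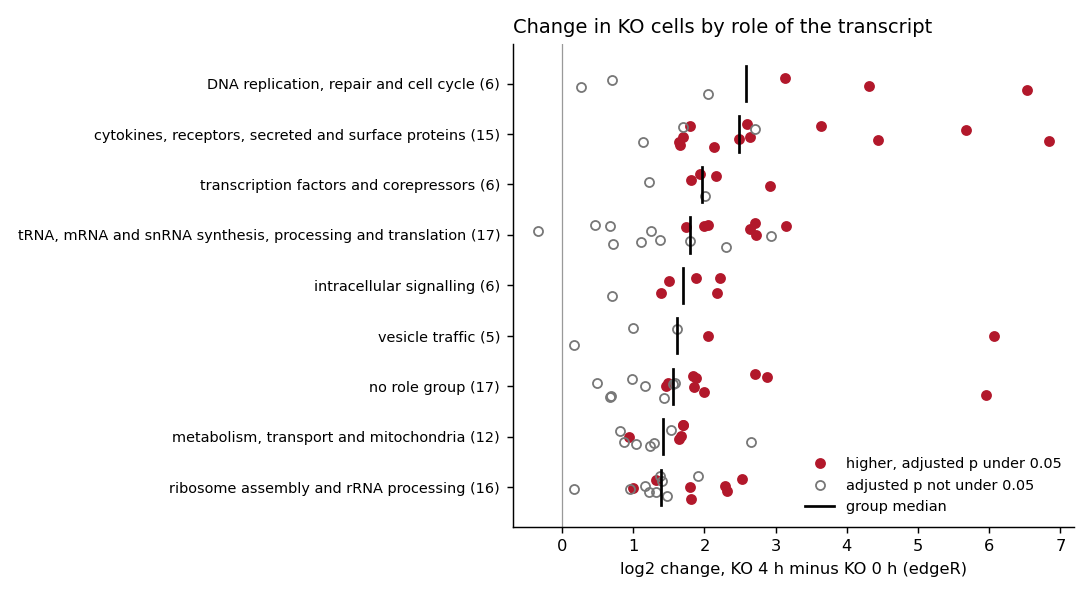
Log2 change of KO 4 h minus KO 0 h (x axis) for the 100 transcripts by role (y axis, number of transcripts in parentheses), with filled points for those that rose, open points for those that did not pass and bars for group medians. Medians run from 1.40 for ribosome assembly to 2.59 for DNA replication, repair and cell cycle, and 1 point, Prmt3, lies below 0.

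At the earlier times in KO, 12 of the 100 were higher and 3 lower at 1 h than at 0 h (all genes: 1.23% higher, 1.51% lower), and 28 were higher and 0 lower at 2 h (all genes: 4.12% higher, 5.77% lower, edgeR). Both share the 0 h libraries with the comparison at 4 h. At 1 h, 7 of the 12 were surface or secreted proteins, namely Tnfrsf9, Ptprf, Mmp13, Fgfr1, Xcl1, Fgl2 and Sdc4, and no ribosome assembly factor passed. Read depth was not matched between these role groups. The other 5 were Ccnb1ip1, Ets1, Htatsf1, Mgat5 and Tmem51. The 3 lower ones were Hk2, Pik3cd and Prss37, a serine protease homologue known from testis. In KO, Prss37 had 53 reads over the 3 libraries at 0 h, 1 read at 1 h, 6.05, 9.86 and 6.45 CPM at 2 h, and 28.4, 10.7 and 26.1 CPM at 4 h, so its fall rests on few reads.

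Between 1 and 2 h, times that the ranking did not use, 11 of the 100 rose and 0 fell in KO (all genes: 0.92% rose, 2.09% fell), and 13 rose and 0 fell in WT (all genes: 0.696% rose, 2.1% fell, edgeR). In KO these were Tnfrsf9, Prss37, Lrp12, Hk2, Eeig1, Rgs14, Pik3cd, Dkc1, Tmem51, Fgl2 and Etv5. In WT they were Tnfrsf9, Trappc14, Pus7, Lrp12, Hk2, Eeig1, Pik3cg, Rgs14, Srm, Pik3cd, Mgat5, Tmem51 and Fgl2. Over the 3 KO libraries, Prss37 had 1 read at 1 h and 377 at 2 h. Over the 3 WT libraries, Pus7 had 0 reads at 1 h and 221 at 2 h. The size of these changes thus rests on few or no reads at 1 h. Lrp12 had 165, 173 and 166 CPM at 2 h and 75.5, 67.9 and 72.8 CPM at 1 h in KO, and 193, 186 and 185 CPM at 2 h and 49.0, 85.5 and 60.5 CPM at 1 h in WT, with no overlap in either. Its change was 1.22 ± 0.17 in KO (adjusted p = 1.66e-06) and 1.53 ± 0.17 in WT (adjusted p = 7.34e-09, edgeR). Tmem51, a membrane protein, had its highest mean at 2 h in both genotypes, with 80.9, 68.1 and 58.1 CPM at 4 h and 82.0, 92.8 and 111 CPM at 2 h in KO, and 59.5, 72.6 and 60.4 CPM at 4 h and 131, 96.5 and 91.5 CPM at 2 h in WT.

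KO and WT levels differed past the threshold for 1 of the 100 at 1 h (higher in KO; all genes: 0.402% higher, 0.1% lower) and for 1 at 2 h (higher in KO; all genes: 0.41% higher, 0.108% lower, edgeR). The median log2 difference of KO minus WT was 0.00 at 1 h and -0.11 at 2 h. At 1 h, 14 transcripts had an unadjusted p under 0.05 by edgeR, 6 higher and 8 lower in KO (all genes: 7.08%). At 2 h, 8 did, 4 higher and 4 lower (all genes: 7.29%), which is near the share of all genes. At 1 h it was Pus7, a pseudouridine synthase, with 4.32, 4.78 and 0.143 CPM in KO and 0 reads in the 3 WT libraries, which is at least 47.6-fold higher against a floor of 3 reads over the group. Pus7 overlapped at 0 and 4 h, and was 10.4, 5.49 and 6.57 CPM in KO and 0.586, 2.18 and 6.40 CPM in WT at 2 h. When only the 2 groups compared at 1 h were fitted, 98 of the 100 passed the filter on low counts. Pus7 did not pass that filter, so it was not tested there. Floors cover counting error only. With its 157 reads of KO at 1 h taken out of the mean over 24 libraries, Pus7 would have been under the minimum of 100 mean reads. Its difference at 1 h was thus partly set by the choice of transcripts.

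At 2 h it was Fam20c, a kinase of secreted proteins in the Golgi. In KO it had 17.9, 24 and 24.3 CPM at 0 h, 18.9, 28.9 and 19.5 CPM at 1 h, 26.2, 39.0 and 32.6 CPM at 2 h, and 33.2, 28.9 and 31.3 CPM at 4 h. The WT levels were 0.186, 4.40 and 2.98 CPM at 0 h, 4.75, 14.0 and 6.48 CPM at 1 h, 5.65, 5.57 and 10.7 CPM at 2 h, and 18.7, 13.4 and 14.6 CPM at 4 h. The KO libraries lay above the WT libraries at 1 and 2 h. They did so at 0 and 4 h as well, but the WT libraries of those times chose the transcripts, so that order carries no reading. The difference of KO minus WT was 2.15 ± 0.53 at 2 h, which passed (adjusted p = 0.041, edgeR), and 1.41 ± 0.52 at 1 h, which did not (adjusted p = 0.45). Leaving out KO 2 h library B or WT 2 h library A ended the call at 2 h. The summed macrophage markers were 2097 to 2485 CPM in KO and 874 to 893 CPM in WT at 2 h, and their part in this difference was not tested. Sdc4 had 79.7, 88.4 and 63.7 CPM in KO and 33.8, 46.6 and 21.2 CPM in WT at 2 h, groups that did not overlap, and a difference of 1.19 ± 0.31 that did not pass (adjusted p = 0.065, edgeR).

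**Figure D5:**
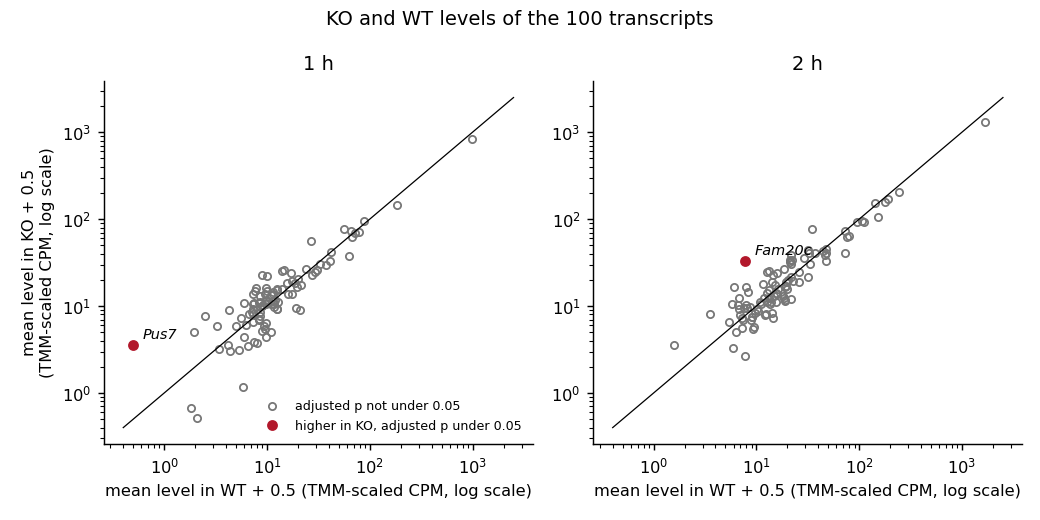
Mean level in KO (y axis) against mean level in WT (x axis) for the 100 transcripts at 1 h (left) and 2 h (right), with 0.5 CPM added and both axes on a log scale. Points lie along the line of equal levels, and the filled ones are Pus7 at 1 h and Fam20c at 2 h.

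The change from 1 to 2 h did not differ between KO and WT past the threshold for any of the 100 by edgeR (0.0% of all genes higher and 0.0% lower) or by DESeq2. By edgeR, 5 had an unadjusted p under 0.05 (all genes: 5.54%). At 0 h, all 3 KO libraries lay above the 3 WT libraries for 28 of the 100 and below them for 1. At 4 h, they lay above for 8 and below for 13. The WT libraries of those times chose the transcripts, which favours low WT values at 0 h and high ones at 4 h, so these counts carry no reading.

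Other gene lists had few of the 100. Lists of immediate early genes, NF-kB targets, cytokines, cytokine receptors, the interferon response, the p53 response and the cell cycle held 0. These lists are short and leave out genes of their kind that are among the 100, such as Xcl1, Il9r and Orc2, and the Ccl genes were dropped by rule. The calcineurin and NFAT list held Tnfrsf9, the circadian list Tef, the survival list Pim2, and the lysosome and mast cell lists Mitf. In KO between 0 and 4 h, 27 of 33 immediate early genes fell and 0 rose, with a median of -2.06, and of 31 tested cytokines, chemokines and growth factors 11 fell and 3 rose. In the NFAT list, 10 of 21 fell and 2 rose, of which Tnfrsf9 was 1. Over all genes, 10.6% fell and 7.45% rose in this comparison, with a median of 0.08. The mast cell marker sum, which includes Mitf, was 239 to 312 CPM in KO and 420.5 to 459 CPM in WT at 4 h.

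For 19 of the 100, a gene on the other strand lay over the last 500 bases in GENCODE M21, among them Fgl2 (Ccdc146), Tnfrsf9 (Camta1), Col18a1 (Slc19a1), Dkc1 (Mpp1), Mgat5 (Tmem163), Orc2 (Nif3l1), Xcl1 and Il4i1. Whether reads were counted by strand is not given in the sources used here, so reads of such pairs may not be told apart. No gene on the same strand lay there for any of the 100.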

How the data were processed

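Per the file headers, the deposited table gives reads per gene and library, and these expected counts were not normalized by the authors; 12.8% of the values were not whole and all were rounded. STAR 2.7.10a, cutadapt 3.5, SAMtools and the build GRCm39 appear in the submitters' processing notes, and GRAND-SLAM and grandR in the design text. The annotation used for counting is not given in the sources used here. Columns are named by genotype, time and a letter, which nothing ties to the labels' numbers, so a column stands for some library of its group and only the reads were kept. A further 144 columns, per sample and with the labelled share in them, were not used here.

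Reads were tested in R 4.3.3 with edgeR 4.0.16 (TMM factors, filterByExpr, 1 quasi-likelihood fit with a mean for each of 8 groups over 24 libraries), which kept 12936 genes and all 100 transcripts. Calls needed an adjusted p under 0.05 (Benjamini-Hochberg, over all genes), and "rose" and "fell" are used for calls. Contrasts were KO 1, 2 and 4 h minus KO 0 h, 2 minus 1 h in each genotype, KO minus WT at 1 and 2 h, and the difference between the genotypes in the change from 1 to 2 h. Contrasts that use WT at 0 or 4 h were not tested, because these libraries chose the transcripts. Alternatives were DESeq2 1.42.0, DESeq2 size factors, library size only, no filter, only the groups compared, leaving out each library, and, added after the data were seen, the column letter as a block. Libraries of a group differed beyond sampling noise in each of 24 pairs (chi-square 30.2 to 78.7 per degree of freedom).

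Transcripts, lists and tests were chosen with earlier results of these data known. Named in the text are the 12 with the highest ranking value, the 12 with the largest called and the 6 with the lowest KO change at 4 h, those called between genotypes or in WT between 1 and 2 h, the 10 with the highest level, list members and those at the edge of the ranking. Role groups, which left 17 of the 100 without a group, and the list of ribosome biogenesis factors were written after the names had been seen, and other transcripts are named as examples of a group, chosen after their values were seen.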

Additional observations from a re-analysis of the deposited data

How the results depend on the processing

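The ranking kept 99 of the 100 transcripts with TMM-scaled CPM, 92 and 72 with 0.5 and 5 CPM added, 59 with a minimum of 200 mean reads, and 64 to 83 when 1 WT library of 0 or 4 h was left out (64 without WT 0 h library A). The 54 that rose in KO at 4 h were 55 with DESeq2 size factors, 68 with library size only, 57 with no filter, 63 by DESeq2, 58 with only the groups compared and 49 to 53 when 1 library was left out. For KO minus WT at 1 h, the 1 call became 2 with DESeq2 size factors, 3 with library size only, 5 with no filter, 3 by DESeq2, 0 with only the groups compared and 1 to 2 when 1 library was left out. With only the groups compared, 98 of the 100 were tested at 1 h, and Pus7, the 1 call, was not among them. At 2 h the 1 call became 2 with library size only, 2 with no filter, 3 by DESeq2 and 0 to 3 when 1 library was left out. KO 2 h minus 1 h gave 18 calls with library size only and 18 with no filter, against 11. The difference between genotypes in the change from 1 to 2 h gave 0 to 1 calls when 1 library was left out, the 1 without WT 2 h library B. The cause of these shifts was not tested. KO at 1 and 2 h and WT 2 h minus 1 h stayed within 1.5 times of 15, 28 and 13 calls in every setting run.

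Among 40 named transcripts, 28 of them called, the KO change at 4 h lost its call in some setting for 5 (Col18a1, Fam83e, Napb, Spout1 and Zdhhc6). Of the others given as examples, Ccdc137 lost its call without any 1 of the 6 KO libraries of 0 and 4 h, Srm without KO 0 h A, B or C or KO 4 h A, Rnf121 without KO 0 h A or C or KO 4 h A or B, Pwp1 and Snupn without KO 0 h A or B or KO 4 h A, and Ints2 and Lpp without KO 0 h A. When the small KO 4 h libraries B and C were both left out, the lost calls were those of Ccdc137, Col18a1, Exosc1, Fam83e, Gtf3c6, Ints2, Rnf121, Rrp1b, Snupn, Tomm40 and Zdhhc6. The sign turned for uncalled ones only: Prmt3 to 0.0401 with library size only, Nufip1 without KO 0 h library C (-0.00595) or KO 4 h library C (-0.156 to 0.42 when 1 library was left out), Trappc11 without KO 4 h library C (-0.0712 to 0.443 when 1 was left out) and to -0.521 without KO 4 h B and C together, Cdc16 without KO 0 h library C (-0.0391 to 0.935 when 1 was left out), and Gtf2e1 to -0.112 without KO 4 h B and C together.

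Over all genes, DESeq2 called 658 in KO 1 h minus 0 h against 354, 647 in WT 2 h minus 1 h against 362, 701 in KO 2 h minus 1 h against 390, 199 and 234 in KO minus WT at 1 and 2 h against 65 and 67, and 75 in the difference between genotypes against 0. With no filter the last 3 were 108, 127 and 11. Nothing says that equal column letters mark shared cultures. Deviations from group means correlated by -0.106 to 0.103 between 84 pairs of libraries with the same letter, 1 of them over 0.1, and 8 of 24 libraries correlated best with their own letter. With the letter as a replicate block, a fit added after the data were seen, 56 of the 100 rose in KO at 4 h, all 54 included, and KO minus WT gave 2 calls at 1 h and 2 at 2 h, against 1 each.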
